A study of Manihot esculenta with 9 samples.

Results

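Mature leaves of cassava seedlings that had stood for 48 h in medium with 7% polyethylene glycol (PEG) were compared with leaves of seedlings kept in plain medium, over all 33033 genes of the deposited table. The comparison takes 6 of the series' 9 RNA-seq libraries, chosen by their treatment labels. The 3 PEG libraries came from wild-type seedlings, 60 days old, of the variety the study names TM60444, which had been raised from stem segments in sterile bottles of Murashige and Skoog (MS) medium and had PEG6000 added to it. The 3 MS control libraries came from wild-type seedlings of the same age and medium with nothing added. The other 3 libraries came from such seedlings given 50 μmol/L abscisic acid (ABA) for 48 h, and they enter below only where a PEG value is set beside them. All groups share the MS medium and the sterile bottle. The study states biological replicates, but whether each library holds a separate plant is not given, so p-values measure the spread between these libraries, which may be technical.

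PEG6000 is too large to enter cells readily and lowers the water potential of the medium, so it is used to mimic drought. In land plants water shortage raises ABA, which binds receptors of the PYR/PYL family. These then hold back clade A PP2C phosphatases, SnRK2 kinases are released, and bZIP factors of the ABF group switch on genes for protective LEA proteins, compatible solutes and ABA's own breakdown. Drought is also known to slow cell division and to lower photosynthesis in leaves. The comparison asks which pathways, apart from the pectin methylesterases, differ in leaves under this osmotic treatment.

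The leaf label was checked against marker genes. A gene for the Rubisco small subunit, which is abundant in green leaf cells, reached 5558 FPKM or more in every PEG library and 2209 FPKM or more in every MS library at Manes.01G011500. CLAVATA3, a defining gene of shoot meristems, had no read in the PEG, ABA or MS libraries. It was picked after its values were seen, and other shoot apex markers did have reads. Summed over the whole list of shoot apex markers, the level averaged 49.7 FPKM in PEG, 50.8 FPKM in ABA and 8.73 FPKM in MS leaves. The lack of CLAVATA3 reads therefore does not settle the label. Library totals were 15847859 to 17108746 counts in the PEG leaves, 14850183 to 15690202 in the ABA leaves and 13923803 to 16378389 in the MS leaves. FPKM values, levels scaled to gene length and library total, are the authors' own. Fold changes come from read counts, by the quasi-likelihood test of edgeR in 1 fit of all 9 libraries. Standard errors (SE) were worked back from that test, as the log2 fold change divided by the square root of its F statistic. They can be too small, even below counting error, where a group has few reads. Gene functions come from the nearest Arabidopsis gene in the deposited table, and what is said of a gene's role below is known mostly from Arabidopsis. For 174 genes 2 libraries of 1 group differed 8-fold or more, and 31 of these passed the test. Several lie beside a near-identical neighbour, and the sources used here do not say how reads matching both copies were treated. Every direction below rests on the treatment labels. Whether PEG and MS were swapped among those labels cannot be told apart from the data, and a swap would turn each direction between PEG and MS leaves round.

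Much of the leaf transcriptome differed. Of 23984 genes with enough reads to test, 8537 (35.6%) were higher and 8409 (35.1%) lower in PEG than in MS leaves at an adjusted p under 0.05, 70.7% in all. The median size of these changes was 0.65 on the log2 scale. At least 2-fold changes were fewer, with 2973 genes higher (12.4%) and 2331 lower (9.72%), and 1140 and 811 genes changed 4-fold or more. FPKM ranges of the PEG and MS libraries did not overlap for 74.7% of the genes tested. These shares are the background for each gene list below: a list is described by how many members passed and by its median log2 fold change, which was 0.00 over all genes tested. With no scaling beyond library size, calls split into 10440 higher and 6682 lower, since that setting moves the median gene by 0.14 towards PEG on the log2 scale. In bulk leaves fewer cells of a type and less RNA per cell cannot be told apart.

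**Figure D1:**
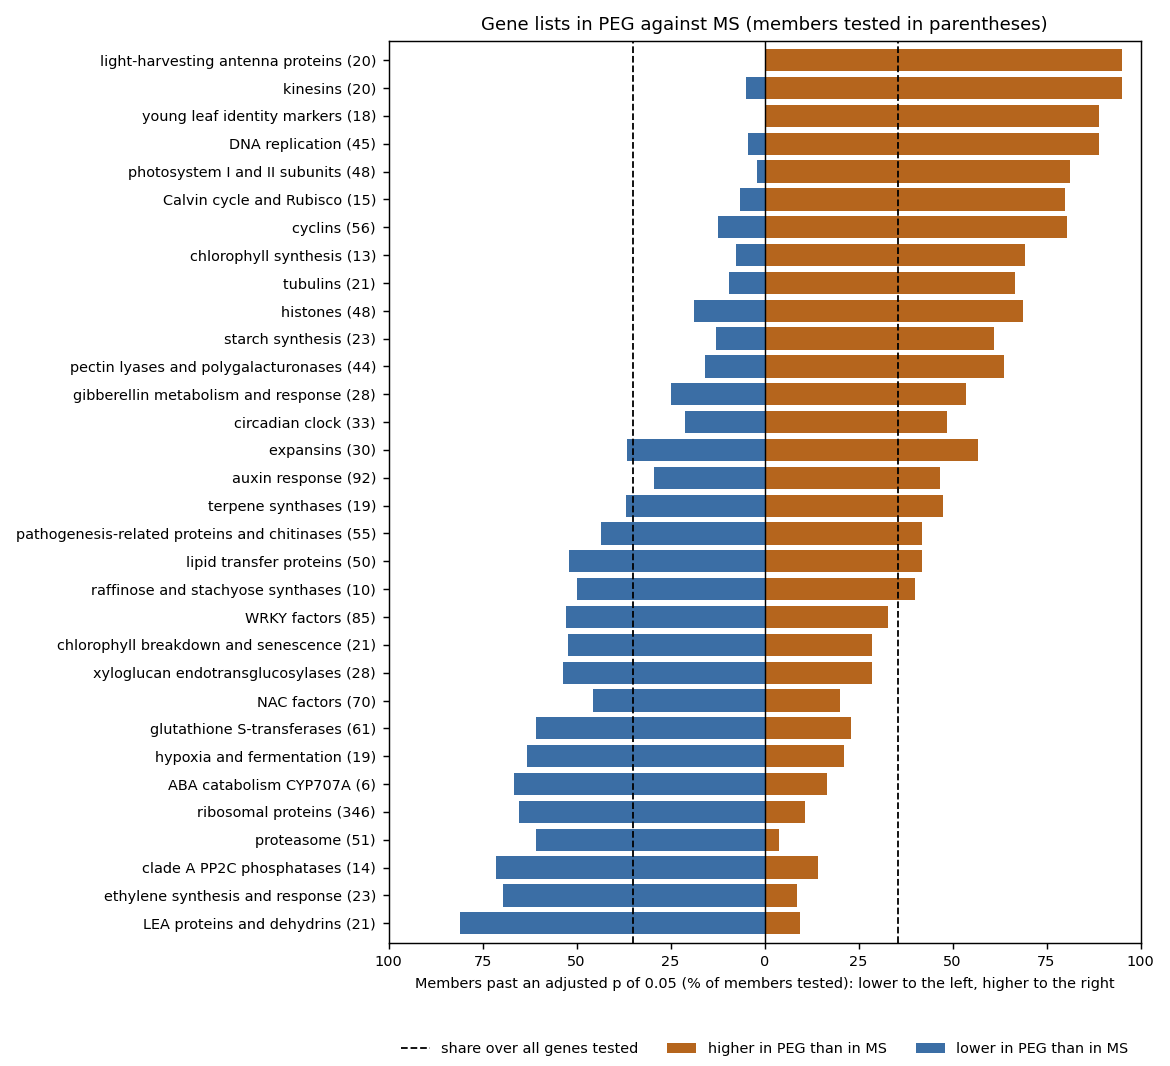
Share of tested members of 32 gene lists that were higher (right, brown) or lower (left, blue) in PEG than in MS leaves at an adjusted p under 0.05, with the number tested in parentheses and the shares over all 23984 genes tested as dashed lines at 35.6% and 35.1%. Kinesins, light-harvesting antenna proteins and DNA replication genes stand at the higher end, and LEA proteins and clade A PP2C phosphatases at the lower end.

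LEA genes were mostly lower in PEG leaves. LEA proteins and dehydrins, hydrophilic proteins that protect cell structures during drying, had 17 members lower and 2 higher of 21 tested, with a median log2 fold change of -2.20. Against ABA leaves 20 of the 21 were lower in PEG leaves and 0 higher, beside 35.6% lower and 39.1% higher over all genes in that comparison. A gene for LEA 4-5 (Manes.08G044900, chromosome 8, 4199246 to 4199868 in the cassava genome v6.1) had 0.77, 0.544 and 0.94 FPKM in PEG leaves, against 127, 139 and 112 FPKM in MS leaves. The groups were far apart, and the gene fell by 7.5 on the log2 scale (SE 0.13, adjusted p = 7.7e-13, edgeR). ECP63 (Manes.08G018000, chromosome 8, 1694189 to 1695943), a LEA protein of embryonic cells, had 0.0388, 0.192 and 0.166 FPKM in PEG leaves, against 46.3, 40.7 and 42.6 FPKM in MS leaves. It fell by 8.43 (edgeR, SE 0.16, adjusted p = 1.43e-12) and none of its PEG values came near its MS values. A dehydrin at high level in every library, Manes.09G138100, had 574, 563 and 575 FPKM in PEG leaves, against 582, 542 and 544 FPKM in MS leaves. Its groups overlapped, and its small difference of -0.1 passed the test (adjusted p = 0.0166 in edgeR) but took the other sign with no scaling beyond library size (0.04). The LEA3 gene Manes.05G061300 had 54, 56.3 and 53.4 FPKM in PEG leaves, against 284, 0.606 and 0.963 FPKM in MS leaves, so MS replicate 1 stood apart from the other MS libraries, and its fold change of -0.92 did not pass (edgeR, adjusted p = 0.519). Without MS replicate 1 it was 5.95.

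The 10 largest falls among annotated genes were led by genes best known from ripening seeds. No read was found in any PEG library for either of a pair of 1-cysteine peroxiredoxin genes, which protect dry seed tissue from oxidation. At Manes.03G210400 (chromosome 3, 29017529 to 29018379) the MS leaves had 48.1, 44.2 and 40.6 FPKM, so its level was at least 531-fold lower in PEG leaves, taking 3 reads over the group as the limit. At Manes.15G003600 the MS leaves had 5.88, 6.11 and 5.55 FPKM, an at least 70.2-fold difference by the same limit. LEA genes Manes.12G112300 (group 6) and Manes.15G168900 (group 1), also without a read in PEG leaves, had 66.2, 58.1 and 55 FPKM and 13.7, 13.6 and 12.8 FPKM in MS leaves. Their levels were at least 319-fold and at least 89.2-fold lower under PEG. The same held for Manes.10G010700, whose nearest Arabidopsis gene AT2G40170 encodes a protein of ripening seeds (at least 225-fold lower), and for the seed storage albumin Manes.15G075900 (at least 201-fold lower). A second albumin gene, Manes.03G123400, had 3 reads over the PEG libraries and 52.3, 55.4 and 55.3 FPKM in MS leaves, a 679.7-fold difference (95% counting interval 232 to 3299). Oleosin 1 (Manes.06G131000), which coats oil bodies, likewise had 3 reads over the PEG libraries and 18, 20.7 and 19.7 FPKM in MS leaves, 244-fold apart (interval 83 to 1185). These intervals and limits cover counting error only. All 10 genes passed the test, the highest adjusted p being 4.32e-07 in edgeR. The 10 also hold ECP63, described above, and a cytochrome P450 gene. Manes.05G139600 (chromosome 5, 19775179 to 19776844), nearest to Arabidopsis CYP83B1 of indole glucosinolate synthesis, had 0.119, 0.196 and 0.0845 FPKM in PEG leaves, against 46.5, 41.9 and 43.5 FPKM in MS leaves. It fell by 8.43 (edgeR, SE 0.1, adjusted p = 6.46e-14), and ABA leaves held 179 ± 1.74 FPKM.

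**Figure D2:**
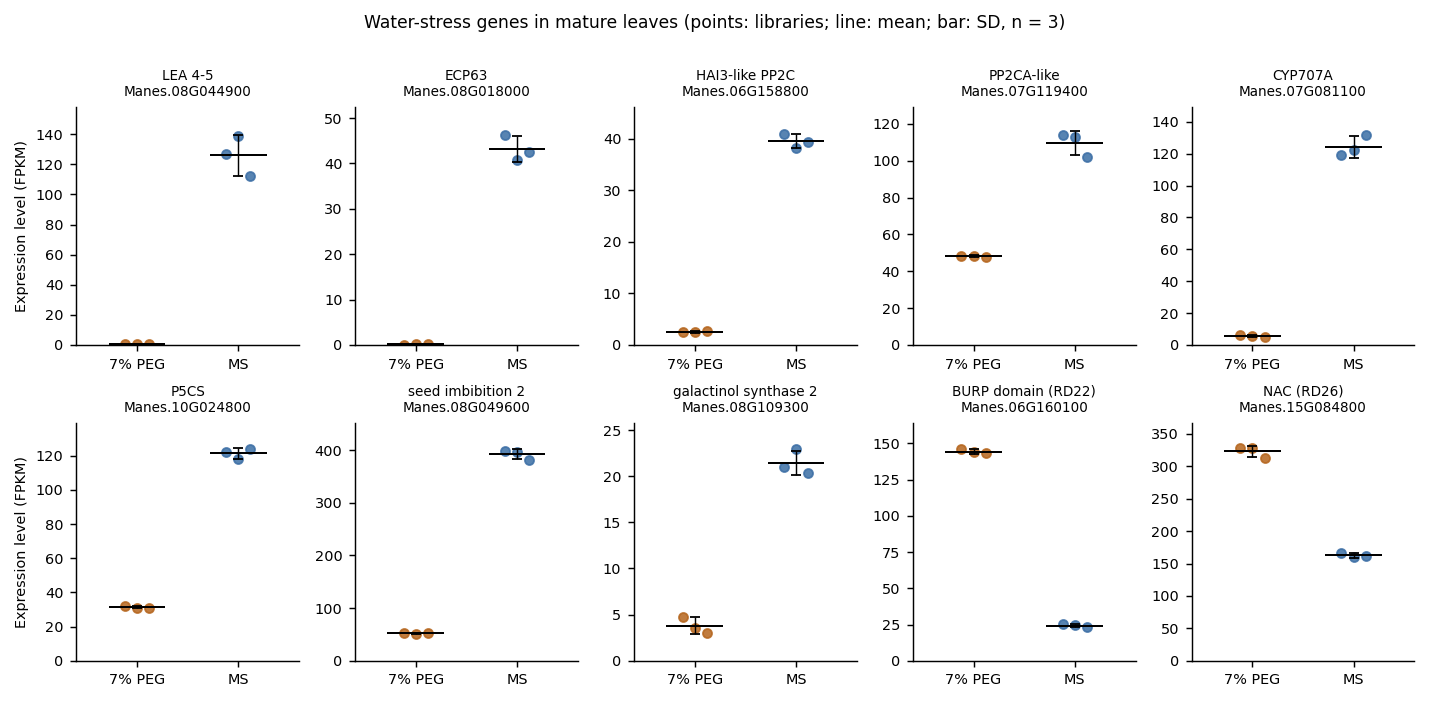
Expression level in FPKM of 10 water-stress genes in each PEG library (brown, left) and MS library (blue, right), with the mean and SD of 3 libraries. The first 8 genes sit lower in PEG leaves with no overlap, whereas the BURP gene Manes.06G160100 and the NAC gene Manes.15G084800 sit higher.

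The ABA signalling chain was lower chiefly at its phosphatases. Clade A PP2Cs, which switch the pathway off and are themselves raised by ABA in Arabidopsis, had 10 members lower and 2 higher of 14 tested, with a median of -2.32, and together they came to 168 ± 12.8 FPKM in PEG leaves and 404 ± 9.96 FPKM in MS leaves (SD, n = 3 each). Manes.06G158800, nearest to the Arabidopsis PP2C HAI3 (chromosome 6, 26022986 to 26025068), had 2.55, 2.45 and 2.8 FPKM in PEG leaves, against 40.9, 38.3 and 39.5 FPKM in MS leaves, without overlap. It fell by 4.06 (edgeR, SE 0.047, adjusted p = 4.38e-14). The PP2CA-like gene Manes.07G119400 (chromosome 7, 24712203 to 24714355), the phosphatase gene of highest level in the list, had 48.5, 48.5 and 47.6 FPKM in PEG leaves, against 114, 113 and 102 FPKM in MS leaves, and fell by 1.32 (SE 0.039, adjusted p = 6.21e-11, edgeR). Set against the ABA leaves, where the PP2CA-like gene averaged 562 ± 6.83 FPKM, the PEG leaves were lower by 3.74 (edgeR, adjusted p = 9.56e-15). In that comparison 11 of the 14 PP2Cs were lower in PEG than in ABA leaves and 1 higher, against the same shares over all genes. The other members with lower values in PEG leaves included the ABI1-type gene Manes.11G023300, with 30.5, 29 and 27.8 FPKM in PEG leaves, against 31.7, 35.9 and 30.9 FPKM in MS leaves. Its change of -0.31 was small but passed (edgeR, adjusted p = 0.000405).

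Receptors, kinases and transcription factors of the chain moved less. Of 12 PYR/PYL receptor genes tested, 5 were lower and 1 higher (median -0.22), and of 12 SnRK2 kinases 5 were lower and 4 higher (median -0.03). The receptor gene Manes.05G024300 had 81.8, 77.1 and 79.9 FPKM in PEG leaves, against 111, 116 and 107 FPKM in MS leaves and fell by 0.62 (edgeR, adjusted p = 4.01e-08). ABF and ABI5 factors had 5 of 7 members lower and 1 higher, with a median of -0.33. The ABF gene Manes.05G174500 had 84.9, 88.7 and 90.3 FPKM in PEG leaves, against 100, 95.4 and 92.1 FPKM in MS leaves, close but not overlapping, and fell by 0.26 (edgeR, adjusted p = 2.7e-05). In ABA leaves this factor averaged 409 ± 4.47 FPKM.

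Both ends of ABA metabolism were measured. Synthesis genes were split, with 5 higher and 4 lower of 13 (median 0.10). The NCED gene Manes.17G071200, for the enzyme that cleaves the carotenoid precursor, had 0.544, 0.564 and 0.304 FPKM in PEG leaves, against 3.02, 3.51 and 3.02 FPKM in MS leaves and fell by 2.87 (edgeR, SE 0.18, adjusted p = 4.85e-08), at a low level. The CYP707A enzymes, which break ABA down, had 4 members lower and 1 higher of 6. Manes.07G081100 (chromosome 7, 18197498 to 18200195) had 6.22, 5.94 and 5 FPKM in PEG leaves, against 119, 122 and 132 FPKM in MS leaves, a fall of 4.57 (edgeR, SE 0.078, adjusted p = 7.21e-13), and Manes.10G067700 fell by 3.87 from a lower level. Another copy went the other way: Manes.01G170900 had 35.6, 33.7 and 34.8 FPKM in PEG leaves, against 19, 20.6 and 22.6 FPKM in MS leaves and rose by 0.61 (edgeR, SE 0.058, adjusted p = 1.94e-06).

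Proline genes were lower as well. Proline accumulates in many plants under osmotic stress, and P5CS makes it. Manes.10G024800, a P5CS gene (chromosome 10, 2026675 to 2035117), had 31.9, 31.1 and 30.9 FPKM in PEG leaves, against 122, 118 and 124 FPKM in MS leaves and fell by 2.09 (edgeR, SE 0.029, adjusted p = 1.36e-13), while the other P5CS gene, Manes.07G120700, had 47.7, 48.5 and 47.6 FPKM in PEG leaves, against 50.7, 48.5 and 48.7 FPKM in MS leaves. Its difference of -0.17 passed the test (edgeR, adjusted p = 0.000224), though not with no scaling beyond library size. Of the 6 proline genes tested, 4 were lower and none higher. Manes.02G063900, nearest to AT5G38710, a proline-oxidising enzyme of Arabidopsis, fell by 1.55 as well, at 6.65 ± 0.197 FPKM in PEG leaves and 17.7 ± 1.25 FPKM in MS leaves (SD, n = 3 each).

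Other dehydration-responsive genes did not share this direction. Of 44 tested genes described as RD22, ERD, HVA22 or COR, 24 were higher and 12 lower, with a median of 0.31. The BURP domain gene Manes.06G160100 (chromosome 6, 26194411 to 26197948), related to the ABA- and drought-responsive RD22 of Arabidopsis, had 146, 144 and 143 FPKM in PEG leaves, against 25.1, 24.6 and 23 FPKM in MS leaves. It rose by 2.44 (edgeR, SE 0.034, adjusted p = 1.36e-13), and averaged 317 ± 1.47 FPKM in ABA leaves. A pair of NAC factors nearest to RD26 of Arabidopsis moved apart. Manes.15G084800 had 328, 328 and 313 FPKM in PEG leaves, against 167, 160.2 and 161 FPKM in MS leaves and rose by 0.86 (edgeR, adjusted p = 5.2e-11), whereas Manes.03G114200 had 139.6, 141 and 137 FPKM in PEG leaves, against 211, 203 and 205 FPKM in MS leaves and fell by 0.7 (edgeR, adjusted p = 9.5e-11). In ABA leaves they averaged 848 ± 6.1 FPKM and 914 ± 9.5 FPKM. DREB and CBF factors, regulators of an ABA-independent branch, had 2 members higher and 1 lower of 7 tested.

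Sugars of the raffinose family protect cells during drying. The list of raffinose and stachyose synthases, which also holds alkaline alpha-galactosidases of the seed imbibition type, had 5 members lower and 4 higher of 10. The 3 most abundant members fell, and the list summed to 243 ± 0.695 FPKM in PEG leaves and 713 ± 13 FPKM in MS leaves (SD, n = 3 each). Seed imbibition 2 (Manes.08G049600, chromosome 8, 4760135 to 4766640) had 52.3, 51.7 and 52.4 FPKM in PEG leaves, against 399, 396 and 382 FPKM in MS leaves, a fall of 3.05 (edgeR, SE 0.02, adjusted p = 5.28e-16). Its relative Manes.09G024300 fell by 1.51 and the raffinose synthase family gene Manes.01G175500 by 1.81. The sum mixes both enzyme types, and raffinose synthase family genes did not all fall. Manes.17G115500 averaged 32.2 FPKM in PEG and 29.3 FPKM in MS leaves and did not pass (edgeR, adjusted p = 0.947). Manes.06G108300 rose by 2.05 at a low level, with 2.31 FPKM in PEG and 0.503 FPKM in MS leaves. Galactinol synthases, which start this pathway, had 5 lower and 2 higher of 8 (median -0.91). Galactinol synthase 2 (Manes.08G109300) had 4.77, 3.58 and 2.97 FPKM in PEG leaves, against 21, 22.9 and 20.4 FPKM in MS leaves and fell by 2.63 (edgeR, SE 0.11, adjusted p = 1.8e-09). The most abundant copy, galactinol synthase 1 (Manes.03G208800), had 255, 248 and 245 FPKM in PEG leaves, against 318, 327 and 312 FPKM in MS leaves and fell by a modest 0.49, and galactinol synthase 4 (Manes.13G029000) had 249, 252 and 247 FPKM in PEG leaves, against 206, 205 and 193 FPKM in MS leaves and rose by 0.17 (edgeR, adjusted p = 0.000143).

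Starch synthesis genes changed more often upwards. Of 23 genes tested in the synthesis list, 14 were higher and 3 lower (median 0.35). The list rests on descriptions, and its members nearest to AT2G39770 and AT1G74910 may not act in starch synthesis. Starch synthase 3 (Manes.16G006900) had 27.5, 26.8 and 27.7 FPKM in PEG leaves, against 12.9, 12.3 and 12.9 FPKM in MS leaves, a rise of 0.97 (edgeR, SE 0.044, adjusted p = 2.63e-09), and a starch branching enzyme (Manes.08G022400) rose by 0.35, at 92.2 ± 3.01 FPKM in PEG leaves and 65.9 ± 1.31 FPKM in MS leaves (SD, n = 3 each). The gene of smallest p in this list, Manes.11G085500, a glucose-1-phosphate adenylyltransferase that supplies the sugar donor for starch, went the other way with 26.3, 25 and 25.5 FPKM in PEG leaves, against 51.7, 51.4 and 52.4 FPKM in MS leaves and fell by 1.15 (edgeR, adjusted p = 1.13e-11). Isoamylase 3 (Manes.18G063500), a debranching enzyme that in Arabidopsis acts in breakdown, had 75.8, 78.1 and 76.2 FPKM in PEG leaves, against 73.6, 71.1 and 74.2 FPKM in MS leaves, and its log2 fold change of -0.06 did not pass (edgeR, adjusted p = 0.077), and it was 0.07 with no scaling beyond library size. Breakdown genes were split, with 9 higher and 11 lower of 24. Among them an alpha-amylase-like gene, Manes.18G037100, had 9.54, 8.11 and 8.45 FPKM in PEG leaves, against 77.2, 73.8 and 74.4 FPKM in MS leaves and fell by 3.24 (edgeR, SE 0.059, adjusted p = 1.24e-12). Beta-amylase 1 (Manes.03G155800) had 70.2, 70.2 and 67.9 FPKM in PEG leaves, against 119.5, 120 and 112 FPKM in MS leaves and fell by 0.89, with 732 ± 6.83 FPKM in ABA leaves. A chloroplast beta-amylase, Manes.15G171200, went the other way and rose by 1.27, at 44.6 ± 1.79 FPKM in PEG leaves and 16.8 ± 1.27 FPKM in MS leaves. Trehalose metabolism, whose phosphate intermediate signals sugar supply, had 7 lower and 5 higher of 13. Sucrose synthases and invertases were split as well, with 8 higher and 12 lower of 25. There sucrose synthase 4 (Manes.16G090600) rose by 1.27, at 84.7 ± 1.28 FPKM in PEG leaves and 32 ± 0.398 FPKM in MS leaves, and sucrose synthase 3 (Manes.01G221900) fell by 0.61, at 253 ± 0.483 FPKM in PEG leaves and 351 ± 6.16 FPKM in MS leaves. Sugar transporters of the SWEET and SUC families had 6 higher and 7 lower of 20. The SWEET gene Manes.14G047700 fell by 1.65 and the sucrose-proton symporter Manes.18G099400, which loads phloem, by 0.73.

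Genes of the photosynthetic apparatus were higher in PEG leaves almost throughout. Light-harvesting antenna proteins, which bind chlorophyll around the photosystems, had 19 members higher and none lower of 20 tested (median 1.35), and photosystem I and II subunits had 39 higher and 1 lower of 48 (median 0.59). The lone lower subunit was photosystem I subunit D-2 (Manes.02G143000), 1 of the genes that disagree between replicates. Without such genes the antenna list summed to 2143 ± 9.5 FPKM in PEG leaves and 758 ± 21.7 FPKM in MS leaves and the photosystem list to 11686 ± 164 FPKM in PEG leaves and 6043 ± 96.3 FPKM in MS leaves (SD, n = 3 each). LHCA3 of photosystem I (Manes.13G058600, chromosome 13, 6293092 to 6294387) had 422, 418 and 409.7 FPKM in PEG leaves, against 89.5, 95 and 93.1 FPKM in MS leaves. Every PEG value was above every MS value, and the gene rose by 2.04 (edgeR, SE 0.045, adjusted p = 5.96e-12). LHCB4 of photosystem II (Manes.08G091700) had 339, 347 and 332 FPKM in PEG leaves, against 138, 137 and 125 FPKM in MS leaves, a rise of 1.21 (edgeR, SE 0.04, adjusted p = 1.54e-10). Photosystem II subunit R (Manes.15G102500), at the highest level among the subunits, had 1744, 1384 and 1605 FPKM in PEG leaves, against 735, 718 and 695 FPKM in MS leaves and rose by 1.01 (edgeR, adjusted p = 4.91e-08).

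Carbon fixation moved with light harvesting. Calvin cycle and Rubisco genes had 12 higher and 1 lower of 15 tested (median 0.73) and summed to 11084 ± 286 FPKM in PEG leaves and 5359 ± 274 FPKM in MS leaves (SD, n = 3 each). A Rubisco small subunit gene, Manes.01G011500 (chromosome 1, 2015240 to 2017292), had 5659, 5648 and 5558 FPKM in PEG leaves, against 2574, 2372 and 2209 FPKM in MS leaves. It rose by 1.1 (edgeR, SE 0.13, adjusted p = 1.46e-05), with the usual doubt over reads shared among copies of this family. Rubisco activase (Manes.10G027600, chromosome 10, 2244212 to 2247341), which clears inhibitors from Rubisco, had 819, 815 and 801 FPKM in PEG leaves, against 265, 276 and 277 FPKM in MS leaves, a rise of 1.44 (edgeR, SE 0.026, adjusted p = 1.2e-12). The ABA leaves held 109 ± 2.44 FPKM of it, 2.70 below the PEG leaves on the log2 scale (edgeR, adjusted p = 5.07e-15). Photorespiration, which recycles the product of Rubisco's reaction with oxygen, was mixed in count at 4 higher and 6 lower of 11. Among the 4 higher members, the glycine decarboxylase P-protein (Manes.16G080300) had 239.7, 236 and 243 FPKM in PEG leaves, against 81.8, 79.7 and 79.2 FPKM in MS leaves, up by 1.44 (edgeR, SE 0.023, adjusted p = 4.48e-13), and hydroxypyruvate reductase (Manes.04G076300) rose by 1.23, at 547 ± 8.87 FPKM in PEG leaves and 213 ± 3.53 FPKM in MS leaves. Of the 6 lower members 5 were serine hydroxymethyltransferases, and the median of the list (-0.11) turned to 0.02 with no scaling beyond library size.

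**Figure D3:**
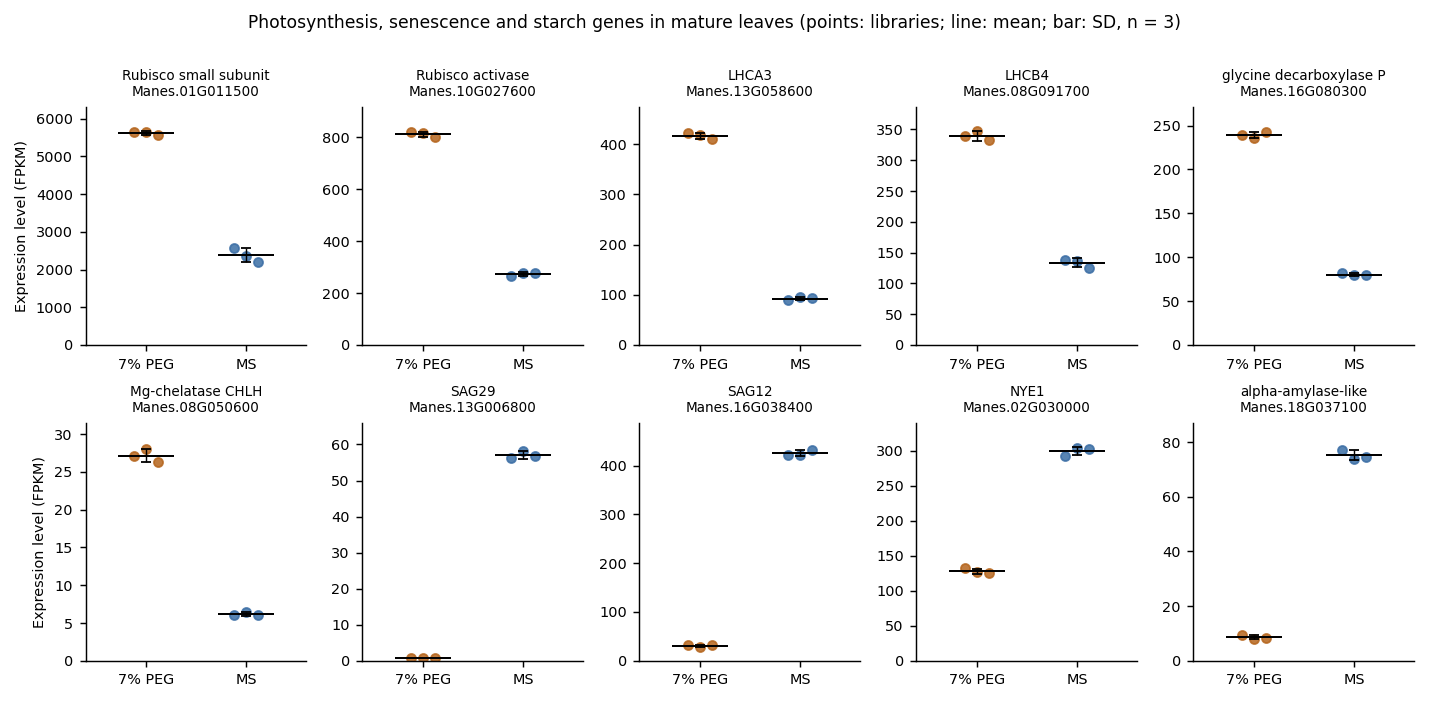
Expression level in FPKM of 10 genes of photosynthesis, leaf senescence and starch breakdown in each PEG library (brown, left) and MS library (blue, right), with the mean and SD of 3 libraries. The first 6 genes sit higher in PEG leaves and the last 4 lower, with no overlap between groups in any panel.

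Chlorophyll genes showed the corresponding split. Synthesis genes had 9 higher and 1 lower of 13 (median 0.36). The magnesium chelatase subunit CHLH (Manes.08G050600), which commits the precursor to chlorophyll, had 27.1, 28.1 and 26.3 FPKM in PEG leaves, against 6.04, 6.5 and 6.09 FPKM in MS leaves and rose by 2 (edgeR, SE 0.058, adjusted p = 6e-11). Protochlorophyllide oxidoreductase C (Manes.13G148200) rose by 1.49, at 48.8 ± 1.76 FPKM in PEG leaves and 15.8 ± 1.29 FPKM in MS leaves (SD, n = 3 each). Genes of chlorophyll breakdown and senescence had 11 lower and 6 higher of 21 (median -0.52). SAG12 (Manes.16G038400, chromosome 16, 4483150 to 4484537), a cysteine protease used as a marker of leaf ageing, had 31.5, 28.8 and 31.4 FPKM in PEG leaves, against 422, 421 and 432 FPKM in MS leaves. It fell by 3.93 (edgeR, SE 0.037, adjusted p = 9.74e-15). SAG29 (Manes.13G006800), a sugar transporter raised by osmotic stress in Arabidopsis, had 0.652, 0.839 and 0.696 FPKM in PEG leaves, against 56.3, 58.3 and 56.7 FPKM in MS leaves and fell by 6.41 (edgeR, SE 0.061, adjusted p = 1.02e-14), while ABA leaves held 360 ± 7.3 FPKM. NYE1 (Manes.02G030000), which removes magnesium from chlorophyll, averaged 128 ± 3.4 FPKM in PEG leaves and 299.8 ± 6.21 FPKM in MS leaves (SD, n = 3 each) and fell by 1.36 (edgeR, SE 0.028, adjusted p = 3.28e-12).

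Cell division genes were higher in PEG leaves, and most were at low levels in MS leaves. Cyclins had 45 members higher and 7 lower of 56 tested (median 1.92), 35 of those 45 at least 2-fold higher. Of 45 DNA replication genes 40 were higher and 2 lower (median 1.56), and of 20 kinesins 19 were higher and 1 lower (median 2.47). These lists leaned higher in ABA than in MS leaves too, with smaller medians of 0.66, 0.55 and 0.83. There 32 cyclins were higher and 6 lower, 26 replication genes higher and 4 lower, and 13 kinesins higher and 1 lower. Over all genes in that comparison 32.9% were higher and 33.4% lower. With a mean of at least 5 FPKM required in a group, which many members reach in PEG but not in MS leaves, 19 cyclins, 21 replication genes and 11 kinesins were called higher, so these counts give no separate support. A D3-type cyclin (Manes.18G041600), which starts the division cycle, had 8.63, 8.11 and 7.89 FPKM in PEG leaves, against 0.691, 0.525 and 0.404 FPKM in MS leaves. It rose by 3.8 (edgeR, SE 0.15, adjusted p = 9.67e-10), and no MS library came near the PEG values. The mitotic kinase gene Manes.05G129300 of the CDKB2 type, found in dividing cells, had 10.9, 12.1 and 11.7 FPKM in PEG leaves, against 0.604, 0.888 and 0.623 FPKM in MS leaves and rose by 3.9 (edgeR, SE 0.15, adjusted p = 7.39e-10). Manes.S101400, a subunit of the MCM helicase that opens DNA for copying, had 10.1, 10.1 and 9.9 FPKM in PEG leaves, against 1.47, 1.16 and 1.25 FPKM in MS leaves, a rise of 2.83 (edgeR, SE 0.095, adjusted p = 1.84e-10).

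Chromatin and the cytoskeleton followed. Histones had 33 higher and 9 lower of 48 tested (median 1.62), 4 of those tested disagreeing between replicates. A histone H3 gene, Manes.14G013600 (chromosome 14, 1298877 to 1299287), had 79.6, 80.8 and 79.1 FPKM in PEG leaves, against 3.15, 2.78 and 2.97 FPKM in MS leaves and rose by 4.61 (edgeR, SE 0.11, adjusted p = 1.42e-11). The linker histone H1-3 (Manes.01G144600), which drought raises in Arabidopsis, had 704, 747 and 713 FPKM in PEG leaves, against 488, 512 and 459 FPKM in MS leaves, a rise of 0.44 (edgeR, adjusted p = 1.2e-06), and the abundant histone gene Manes.04G031500 had 360.5, 359 and 374 FPKM in PEG leaves, against 389.8, 371 and 367 FPKM in MS leaves. The groups of this abundant gene overlapped, and its difference of -0.18 passed the test (edgeR, adjusted p = 0.000537), though not with no scaling beyond library size. Kinesin 1 (Manes.16G017100), a motor of the mitotic spindle, had 8.75, 8.11 and 7.81 FPKM in PEG leaves, against 0.599, 0.516 and 0.428 FPKM in MS leaves and rose by 3.87 (edgeR, SE 0.14, adjusted p = 2.75e-10). Tubulins, which form microtubules, had 14 higher and 2 lower of 21 (median 0.48), and the alpha-tubulin Manes.07G056600 rose by 1.64, at 122 ± 3.13 FPKM in PEG leaves and 35.6 ± 2.13 FPKM in MS leaves (SD, n = 3 each).

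**Figure D4:**
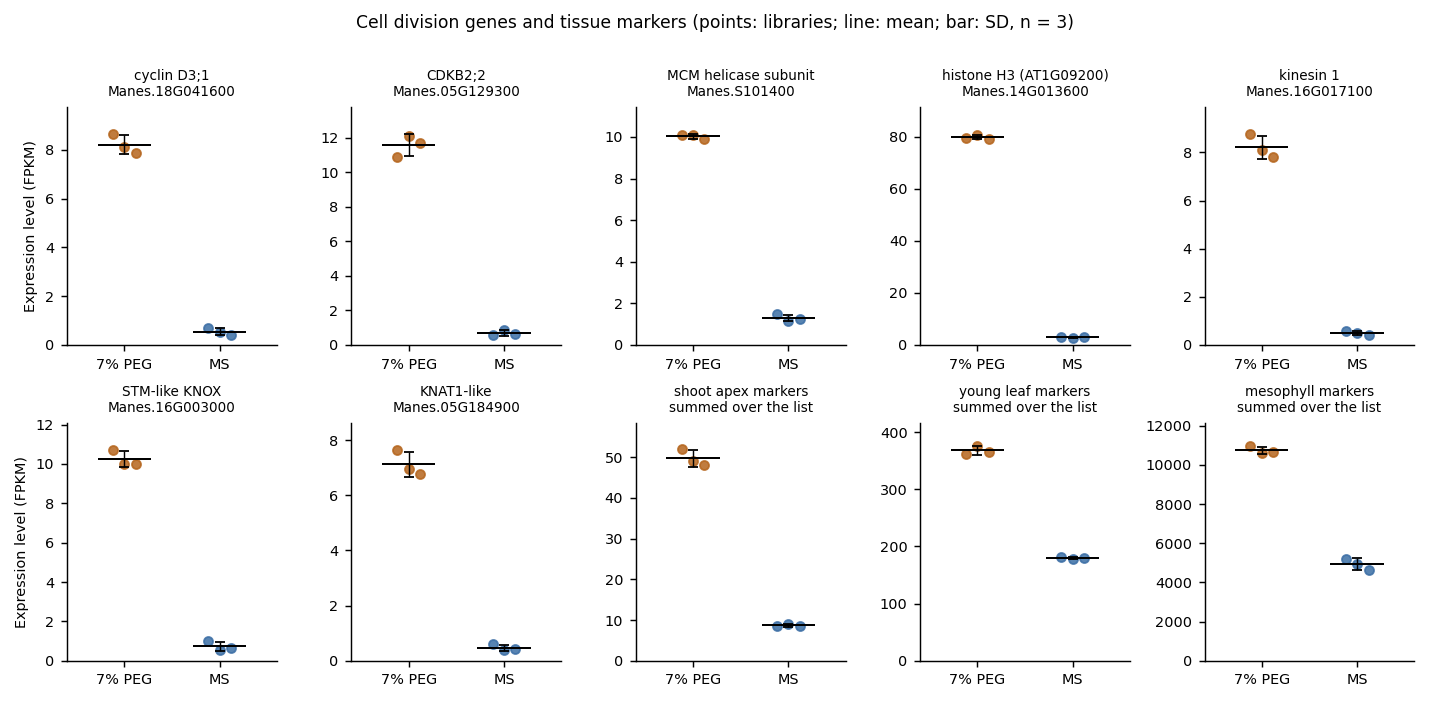
Expression level in FPKM of 7 cell division and KNOX genes, and the summed FPKM of 3 marker lists, in each PEG library (brown, left) and MS library (blue, right), with the mean and SD of 3 libraries. All 10 panels sit higher in PEG leaves, including the shoot apex, young leaf and mesophyll marker sums.

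Markers of young tissue moved with these genes, and their part in the result was not tested. Of 18 shoot apex and meristem markers found, 11 had enough reads to test, 8 were higher and none lower in PEG leaves. Their summed level was 48.1 to 52 FPKM in PEG leaves, 50.3 to 51.3 FPKM in ABA leaves and 8.5 to 9.13 FPKM in MS leaves. All 8 were KNOX homeobox genes, which keep meristem cells undifferentiated. The STM-like gene Manes.16G003000 had 10.7, 10 and 10 FPKM in PEG leaves, against 0.999, 0.561 and 0.637 FPKM in MS leaves and rose by 3.68 (edgeR, SE 0.15, adjusted p = 1.26e-09), and the KNAT1-like gene Manes.05G184900 had 7.63, 6.96 and 6.78 FPKM in PEG leaves, against 0.605, 0.39 and 0.418 FPKM in MS leaves and rose by 3.79 (edgeR, SE 0.14, adjusted p = 4.62e-10). The stem cell genes were at or near 0: CLAVATA3 had no read and the copies of WUSCHEL at most 1 read over either group. Young leaf markers had 16 higher and none lower of 18 tested, with sums of 362 to 376 FPKM in PEG leaves and 178 to 181 FPKM in MS leaves. The YABBY gene Manes.05G048000, which marks the lower leaf face, had 29.6, 32.8 and 30.9 FPKM in PEG leaves, against 5.36, 5.64 and 5.65 FPKM in MS leaves and rose by 2.35 (edgeR, SE 0.076, adjusted p = 1.4e-10). Mesophyll markers, which hold photosynthesis genes named above, had 15 higher and 1 lower of 18 tested and summed to 10741 ± 178 FPKM in PEG leaves and 4930.3 ± 293 FPKM in MS leaves (SD, n = 3 each). Root markers had 5 higher and none lower of 6, with sums of 40.9 to 41.6 FPKM in PEG leaves and 15.8 to 17.9 FPKM in MS leaves. Those root markers were SCARECROW and SHORT-ROOT relatives, which leaves express as well, and 9 of the 18 root markers had no read in the PEG or MS libraries. Xylem markers had 10 higher and 2 lower of 15, phloem markers 6 and 5 of 18 and stomatal markers 3 and 3 of 8. The higher stomatal markers were nearest to SPEECHLESS (log2 fold change 5.12, with 3 reads over the MS libraries), TOO MANY MOUTHS (2.03) and STOMAGEN (0.53). The lower ones were nearest to KAT1 (-1.7 and -1.26) and FAMA (-0.21).

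The 10 largest rises were led by a gene of unknown function. A DUF247 protein of unknown function, Manes.03G151700 (chromosome 3, 24757224 to 24758815), had 7.49, 7.86 and 7.13 FPKM in PEG leaves, against 0, 0 and 0.0421 FPKM in MS leaves. It had 1 read over the MS libraries, so its 448-fold higher level carries a 95% counting interval of 80.1 to 17744. Its chromosomal neighbour Manes.03G151900, also DUF247, rose by 5.56 (edgeR, SE 0.34, adjusted p = 3.31e-08). Manes.18G123400, nearest to a CYP714A cytochrome P450 that inactivates gibberellin, had 9.76, 8.08 and 8.41 FPKM in PEG leaves, against 0.0499, 0 and 0.0424 FPKM in MS leaves, 259.7-fold higher (interval 71.6 to 2149, with 2 reads over the MS libraries). WRKY70 (Manes.09G123700), which sets the balance of salicylate and jasmonate defence in Arabidopsis, had 9.61, 8.64 and 10.2 FPKM in PEG leaves, against 0.112, 0.105 and 0 FPKM in MS leaves and rose by 6.84 (edgeR, SE 0.3, adjusted p = 2e-09). IMK2, a receptor-like kinase of meristems (Manes.10G007600), rose by 6.19, and the small GTPase ROP9 (Manes.16G113500) by 5.46. The other 4 act on chromosomes or spindles: microtubule motor Manes.S002200 (up by 6.07), HMG box gene Manes.02G012100 (5.41), histone gene Manes.05G070300 (5.31) and kinesin Manes.13G102000 (5.24). The highest adjusted p among the 10 was 3.31e-08 in edgeR.

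Cell wall families other than pectin methylesterases moved in both directions. Expansins, which loosen walls, had 17 higher and 11 lower of 30 (median 0.79). The most abundant member, expansin-like A1 (Manes.04G068200), went against that median with 39.2, 37.4 and 37.6 FPKM in PEG leaves, against 174, 174 and 185 FPKM in MS leaves, a fall of 2.36 (edgeR, SE 0.039, adjusted p = 5.62e-13). Xyloglucan endotransglucosylases, which cut and rejoin the chains between cellulose fibres, had 15 lower and 8 higher of 28 (median -0.68). XTH16 (Manes.05G199600) had 28.4, 26.6 and 28.8 FPKM in PEG leaves, against 287, 299 and 309 FPKM in MS leaves and fell by 3.55 (edgeR, SE 0.041, adjusted p = 4.38e-14), and XTH6 (Manes.S061400) had 288, 287 and 291 FPKM in PEG leaves, against 533, 512 and 530.5 FPKM in MS leaves and fell by 1. Pectin lyases and polygalacturonases, which cut the pectin backbone, had 28 higher and 7 lower of 44 tested (median 0.66, or 0.57 with 2 genes unread in a group put at 3 reads). A pectate lyase gene, Manes.12G019100, had 39.3, 36 and 36.8 FPKM in PEG leaves, against 5.23, 5.6 and 5.97 FPKM in MS leaves and rose by 2.6 (edgeR, SE 0.071, adjusted p = 3.43e-11). Fasciclin-like arabinogalactan proteins had 10 higher and 4 lower of 19. Cellulose synthases had 9 higher and 5 lower of 14 (median 0.79, or -0.33 with a mean of 5 FPKM required in a group), and the 3 most abundant were lower: Manes.10G142600 had 65, 64.2 and 65.2 FPKM in PEG leaves, against 91.5, 95.4 and 94.3 FPKM in MS leaves and fell by 0.67 (edgeR, adjusted p = 7.02e-10).

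Surface lipids gave large differences at their most abundant genes. Lipid transfer proteins, small secreted carriers of cuticle lipids, changed in both directions at 21 higher and 26 lower of 50, but summed to 3442 ± 20.1 FPKM in PEG leaves and 9059.6 ± 392 FPKM in MS leaves (SD, n = 3 each). LTP3 genes were among the most abundant members, and reads may be split among such copies. Manes.14G166500 (chromosome 14, 22526480 to 22527497) had 168, 158 and 159.6 FPKM in PEG leaves, against 1642, 1651 and 1691 FPKM in MS leaves, a fall of 3.49 (edgeR, SE 0.028, adjusted p = 3.09e-15). Manes.08G171900 had 575, 584 and 577 FPKM in PEG leaves, against 2257, 2296 and 1820.3 FPKM in MS leaves and fell by 2.01 (edgeR, SE 0.069, adjusted p = 2.28e-10). Cuticle, wax and cutin genes had 12 lower and 6 higher of 24. The wax-chain enzyme 3-ketoacyl-CoA synthase 1 (Manes.05G017600) had 6.53, 6.84 and 6.56 FPKM in PEG leaves, against 59.9, 58.3 and 55.5 FPKM in MS leaves and fell by 3.26 (edgeR, SE 0.038, adjusted p = 4.38e-14), and 3-ketoacyl-CoA synthase 6 (Manes.14G102100) fell by 2.54, at 22.7 ± 0.997 FPKM in PEG leaves and 120.4 ± 5.66 FPKM in MS leaves. ABA leaves held 292 ± 5.53 FPKM and 248 ± 5.04 FPKM of the same genes.

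**Figure D5:**
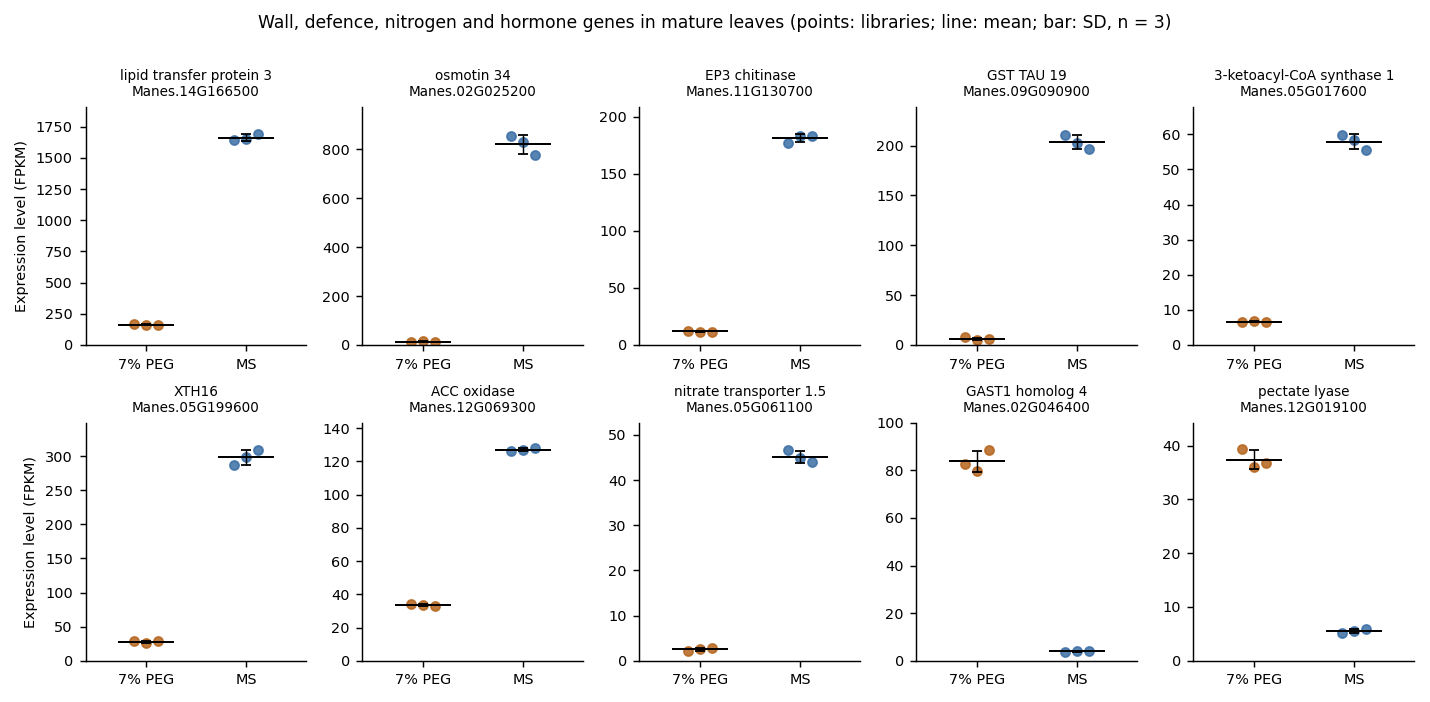
Expression level in FPKM of 10 wall, surface lipid, defence, nitrogen and hormone genes in each PEG library (brown, left) and MS library (blue, right), with the mean and SD of 3 libraries. The first 8 genes sit lower in PEG leaves, and GAST1 homolog 4 and the pectate lyase Manes.12G019100 sit higher.

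Defence and detoxification genes included some of the strongest falls at high level. Osmotin 34 (Manes.02G025200, chromosome 2, 1992285 to 1993163), an antifungal protein raised by osmotic stress in other plants, had 12.8, 16.3 and 13.4 FPKM in PEG leaves, against 855, 829 and 778 FPKM in MS leaves. It fell by 5.99 (edgeR, SE 0.083, adjusted p = 1.36e-13), while ABA leaves, at 785 ± 18.6 FPKM, did not pass a test against MS leaves (edgeR, adjusted p = 0.991). An EP3-type chitinase (Manes.11G130700) had 12.4, 11.4 and 11.7 FPKM in PEG leaves, against 177, 183 and 183 FPKM in MS leaves and fell by 4.06 (edgeR, SE 0.038, adjusted p = 8.47e-15). Over the whole list of pathogenesis-related proteins and chitinases, 23 were higher and 24 lower of 55, an even split, and the sign of the median (0.28) turned in a fit of the 6 PEG and MS libraries alone (-0.30). Glutathione S-transferases, which tag toxic compounds, had 37 lower and 14 higher of 61 (median -0.62). GST PHI 9 (Manes.02G089200) had 322, 337 and 326 FPKM in PEG leaves, against 1105, 1079 and 1141 FPKM in MS leaves and fell by 1.89 (edgeR, SE 0.028, adjusted p = 2.06e-13), and GST TAU 19 (Manes.09G090900) had 7.64, 5.4 and 5.83 FPKM in PEG leaves, against 211, 203 and 197 FPKM in MS leaves and fell by 5.15 (edgeR, SE 0.094, adjusted p = 1.29e-12).

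Antioxidant enzymes and class III peroxidases, which handle reactive oxygen, were near even at 16 higher and 16 lower of 41, and 15 and 17 of 38. Catalase copies parted: catalase 2 copy Manes.05G130500 had 1792, 1799.7 and 1778 FPKM in PEG leaves, against 1916, 1899.6 and 1927 FPKM in MS leaves, a small fall of 0.23 (edgeR, adjusted p = 2.24e-08). A weaker copy, Manes.02G113300, had 183, 189.6 and 185 FPKM in PEG leaves, against 60.7, 61 and 59.7 FPKM in MS leaves and rose by 1.49 (edgeR, adjusted p = 2.17e-12). Heat shock proteins had 61 lower and 33 higher of 145, with a median of -0.13 that was 0.01 with no scaling beyond library size. Heat shock factors had 10 higher and 5 lower of 25, yet the abundant class B factor Manes.13G124500 had 28.8, 26.7 and 24.7 FPKM in PEG leaves, against 184, 182 and 177 FPKM in MS leaves and fell by 2.89 (edgeR, SE 0.047, adjusted p = 5.28e-13). WRKY factors had 45 lower and 28 higher of 85, and NAC factors 32 lower and 14 higher of 70. The NAC gene Manes.09G185300, nearest to NAC083, which restrains vessel formation in Arabidopsis, had 102, 101 and 98.3 FPKM in PEG leaves, against 269, 269 and 276 FPKM in MS leaves and fell by 1.56 (edgeR, SE 0.028, adjusted p = 1.14e-12). Hypoxia and fermentation genes had 12 lower and 4 higher of 19, with alcohol dehydrogenase 1 (Manes.18G087000) an exception at 124 ± 3.46 FPKM in PEG leaves and 84 ± 4.12 FPKM in MS leaves, up by 0.42.

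Among hormones other than ABA, ethylene genes were lower and gibberellin genes leaned higher. Ethylene synthesis and response genes had 16 lower and 2 higher of 23 (median -0.98). ACC oxidase Manes.12G069300, which makes ethylene, had 34.3, 33.8 and 33 FPKM in PEG leaves, against 126, 127 and 128 FPKM in MS leaves and fell by 2.04 (edgeR, SE 0.03, adjusted p = 2.21e-13). A second, more abundant ACC oxidase, Manes.16G002300, had 485, 493 and 466 FPKM in PEG leaves, against 438, 449 and 430.3 FPKM in MS leaves, and although its FPKM values did not overlap, its log2 fold change of 0 after TMM scaling did not pass (edgeR, adjusted p = 0.997). ETHYLENE RESPONSE FACTOR 1 (Manes.17G051600) fell by 2.01, at 8.19 ± 0.105 FPKM in PEG leaves and 30.2 ± 1.13 FPKM in MS leaves (SD, n = 3 each). Gibberellin metabolism and response genes had 15 higher and 7 lower of 28 (median 0.76). The small secreted protein GAST1 homolog 4 (Manes.02G046400), which promotes cell elongation in Arabidopsis, had 82.8, 79.9 and 88.4 FPKM in PEG leaves, against 3.53, 4.1 and 4.04 FPKM in MS leaves and rose by 4.29 (edgeR, SE 0.11, adjusted p = 1.76e-11). A gibberellin-regulated family gene, Manes.06G092400, rose by 2.06, at 176 ± 6.9 FPKM in PEG leaves and 38.6 ± 3.17 FPKM in MS leaves, and another, Manes.05G179800, fell by 4.11, at 2.18 ± 0.161 FPKM in PEG leaves and 34.5 ± 1.39 FPKM in MS leaves.

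Auxin and cytokinin lists held changes in both directions. Auxin response genes had 43 higher and 27 lower of 92, auxin transport genes 10 and 8 of 19, and cytokinin genes 18 and 11 of 37. The auxin repressor IAA14 (Manes.15G036200) had 155, 152 and 149 FPKM in PEG leaves, against 80.3, 78.5 and 75.9 FPKM in MS leaves and rose by 0.83 (edgeR, adjusted p = 2.79e-09). A GH3 gene that conjugates auxin, Manes.08G100100, fell by 3.67, at 1.34 ± 0.0493 FPKM in PEG leaves and 15.7 ± 0.414 FPKM in MS leaves (SD, n = 3 each). Isopentenyltransferase 3 (Manes.01G209100), a step of cytokinin synthesis, had 3.67, 4.91 and 4.21 FPKM in PEG leaves, against 23.1, 23.1 and 21.9 FPKM in MS leaves and fell by 2.54 (edgeR, SE 0.094, adjusted p = 4.56e-10). Jasmonate genes were even at 14 higher and 14 lower of 39, where allene oxide synthase (Manes.05G166200) fell by 1.86, at 28.5 ± 0.913 FPKM in PEG leaves and 94.1 ± 0.847 FPKM in MS leaves. Brassinosteroid genes had 7 higher and 13 lower of 22, and ERF factors 35 and 36 of 88.

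Nutrient and water transport gave the last set. Nitrate and ammonium genes had 17 lower and 12 higher of 34. Nitrate transporter 1.5 (Manes.05G061100), which loads nitrate into xylem, had 2.12, 2.59 and 2.77 FPKM in PEG leaves, against 46.6, 44.9 and 44 FPKM in MS leaves and fell by 4.31 (edgeR, SE 0.08, adjusted p = 1.43e-12), and nitrate transporter 1.7 (Manes.05G095700), which moves nitrate out of old leaves, had 78.4, 72.7 and 74.8 FPKM in PEG leaves, against 247, 251 and 246 FPKM in MS leaves and fell by 1.85. Glutamine synthetase 2 (Manes.03G186600), the chloroplast enzyme that takes up ammonium from photorespiration, had 711, 715 and 729.8 FPKM in PEG leaves, against 344, 349.8 and 353 FPKM in MS leaves and rose by 0.91 (edgeR, SE 0.025, adjusted p = 3.86e-11). Phosphate starvation genes had 28 lower and 14 higher of 59, and iron genes 7 lower and 13 higher of 24, with ferritin 4 (Manes.08G095800), an iron store, at 131 ± 7.7 FPKM in PEG leaves and 282 ± 7.47 FPKM in MS leaves and down by 1.24. Aquaporins, the water channels, had 15 lower and 8 higher of 27. The most abundant, Manes.02G020100 of the plasma membrane PIP1 type, averaged 298 ± 4.43 FPKM in PEG leaves and 193 ± 6.87 FPKM in MS leaves (SD, n = 3 each) and rose by 0.5 (edgeR, SE 0.035, adjusted p = 1.42e-07), while Manes.09G068800 of the PIP2 type fell by 2.36, at 6.76 ± 0.55 FPKM in PEG leaves and 31.6 ± 2.17 FPKM in MS leaves, with 224 ± 5.97 FPKM in ABA leaves.

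Protein making and breakdown shifted by small amounts over many genes. Of 346 ribosomal protein genes 226 were lower and 37 higher, with a median of -0.28. The ribosomal protein gene Manes.18G125200 had 75.9, 78.9 and 78.1 FPKM in PEG leaves, against 166, 166 and 147 FPKM in MS leaves and fell by 1.17 (edgeR, SE 0.045, adjusted p = 5.76e-10). Higher members included Manes.05G197600, described as a 30S subunit protein of the organelle type, with 206, 207 and 200.4 FPKM in PEG leaves, against 102, 97.6 and 97.6 FPKM in MS leaves and a rise of 0.92. Proteasome subunits, which degrade tagged proteins, had 31 lower and 2 higher of 51 (median -0.32), and 20S subunit gene Manes.14G047200 fell by 0.97, at 32.9 ± 0.876 FPKM in PEG leaves and 58.7 ± 1.73 FPKM in MS leaves. With no scaling beyond library size, 168 ribosomal genes were lower and 57 higher, and for the proteasome 27 and 8, so part of this shift rests on scaling. Aminoacyl-tRNA synthetases had 21 higher and 11 lower of 50, protein folding genes of the endoplasmic reticulum 3 and 10 of 17, and autophagy genes 4 and 5 of 16.

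Smaller lists complete the comparison. Clock genes had 16 higher and 7 lower of 33, with pseudo-response regulator 5 (Manes.01G043200), an evening repressor in Arabidopsis, at 29.3, 29.4 and 29.4 FPKM in PEG leaves, against 10.8, 11.5 and 9.88 FPKM in MS leaves and up by 1.32 (edgeR, SE 0.059, adjusted p = 2.32e-09). Another copy, Manes.05G016200, went the other way at a low level, with 0.578 FPKM in PEG and 0.985 FPKM in MS leaves. Its log2 fold change was -0.91 (edgeR, adjusted p = 0.0014). Flavonoid and anthocyanin enzymes had 11 lower and 8 higher of 20. There the chalcone synthase family gene Manes.11G075100, at the entry to the pathway, had 8.82, 8.6 and 8.45 FPKM in PEG leaves, against 46.1, 50.7 and 45.8 FPKM in MS leaves and fell by 2.59 (edgeR, SE 0.062, adjusted p = 1.06e-11). Phenylpropanoid and lignin enzymes had 14 higher and 17 lower of 45, where laccase 7 (Manes.08G083300) fell by 2.51, at 21.4 ± 0.641 FPKM in PEG leaves and 111 ± 4.99 FPKM in MS leaves (SD, n = 3 each). Terpene synthases had 9 higher and 7 lower of 19. The pair of CYP79 genes, relatives of the enzymes that start cyanogenic glucoside synthesis in cassava, gave no call: Manes.12G133500 had 31.1, 33.5 and 30.2 FPKM in PEG leaves, against 29.9, 30.8 and 28.1 FPKM in MS leaves, overlapping, with a log2 fold change of -0.04 (edgeR, adjusted p = 0.499). Growth-regulating and TCP factors had 20 higher and 15 lower of 45, and growth-regulating factor 9 (Manes.01G264700) rose by 2.54 at low level, 3.14 ± 0.143 FPKM in PEG leaves and 0.489 ± 0.0235 FPKM in MS leaves. CDKs and their regulators had 7 higher and 3 lower of 13, and alternative respiration genes none higher and 2 lower of 5, alternative oxidase 2 (Manes.06G012700) falling by 0.71, at 78.9 ± 0.657 FPKM in PEG leaves and 118 ± 5.41 FPKM in MS leaves.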

How the data were processed

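RNA-seq of mature cassava leaves was analysed from the authors' deposited table, which gives whole-number read counts (raw, not normalized) and FPKM values (scaled by the authors to gene length and library total) per gene and library. HISAT2 2.0.4 and StringTie 1.3.0 are listed in the submitters' processing notes, and genes are placed on cassava genome v6.1. Which tool counted reads, whether by strand, and how multi-mapped reads were treated was not given in the sources used here.

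Counts were tested with edgeR 4.0.16 (quasi-likelihood F-test, TMM scaling, filterByExpr, R 4.3.3, limma 3.58.1) in 1 fit of 9 libraries without covariates, with Benjamini-Hochberg adjustment over 23984 genes and a threshold of 0.05. Alternatives were DESeq2 1.42.0, other scaling and filters, the 6 libraries alone, a replicate block and leaving out each library. On simulated counts for PEG against MS (22676 genes) 83.6% of 67 genes changed 1.5-fold and 100% of those changed 2-fold and 4-fold were recovered, and 13 of 202 calls were false. The simulation changed only a small share of genes, all well read, gave every gene the same spread and fitted 6 libraries. Its rates therefore do not carry over to genes of few reads or to data in which 70.7% of genes passed. Replicate libraries differed by more than sampling noise (median chi-square 0.673 to 0.875 per pair, 0.455 from sampling alone), so none was merged.

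A total of 76 gene lists were built from descriptions and Arabidopsis loci (25646 genes carry a description), leaving out 89 pectin methylesterases. False matches were trimmed after the descriptions were read, so those that a description does not give away may remain. The comparison and lists were chosen with earlier results of these data known. Named genes are the 10 largest rises and falls (annotated, past the test, FPKM ranges apart, at least 5 FPKM) and, per list, the 2 of highest level and the 2 of smallest p. Manes.02G143000, Manes.17G115500, Manes.06G108300, Manes.15G171200, Manes.05G016200, CLAVATA3, WUSCHEL and the stomatal markers were named after their values were seen. Promoter sequences were not analysed here.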

Additional observations from a re-analysis of the deposited data

How the results depend on the processing

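The counts of genes changed kept within 1.5 times of 8537 higher and 8409 lower under every alternative, with 8110 to 8585 higher and 8023 to 8469 lower when 1 library was left out, and 2971 to 3057 and 2317 to 2377 at 2-fold or more. With a mean of at least 5 FPKM required in a group, 1431 genes were higher and 1516 lower at 2-fold or more, since fewer genes were tested. DESeq2's test gave 7918 higher and 7903 lower. The replicate block gave 8428 and 8299. Whether replicate numbers pair the libraries was not tested. Deviations of same-numbered PEG and MS libraries correlated at 0.0682, 0.0311 and 0.0375, and those of other pairs at -0.0493 to 0.0114. All of these were small, though each PEG library correlated best with its own number, as a hint from the data. With no scaling beyond library size the higher share of calls was 61.0%, against 50.4%. Under that setting the sign turned for the medians of photorespiration (0.02) and heat shock proteins (0.01) and for Manes.09G138100 (0.04), Manes.18G063500 (0.07), Manes.16G087600 (0.01), Manes.10G117300 (0.02), Manes.16G002300 (0.13), Manes.18G095000 (0.11) and Manes.12G089500 (0.06). With the 5 FPKM minimum the medians of DREB and CBF factors (-0.70), cellulose synthases (-0.33), pathogenesis-related proteins (-0.61, and -0.30 with the 6 libraries alone), auxin transport (-0.05) and stomatal markers (-0.08, and -0.01 to 0.34 with 1 library left out) turned. Manes.05G061300 ranged between -1.51 and 5.95 with 1 library left out, the highest without MS replicate 1. The cause of these turns was not tested. Over all alternatives, 2485 counts of list members stayed within 1.5 times and 99 did not. Of list medians, 1114 moved by no more than the median SE of their member genes, 169 moved by more and 9 turned. That yardstick is not an error of the list median, which was not computed. Single named genes lost the call 35 times and gained it 19 times, against 4503 times without change. Leaving out ABA libraries or genes that disagree between replicates was added after seeing the data. With 3 libraries a group, genes of few reads have wide errors.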
